A study of Mus musculus with 6 samples.

Results

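The genes described here are 42 mouse genes of DNA replication and S phase, the stretch of the cell cycle in which the genome is copied. They were taken by symbol from a list made by function, though with earlier results of these data known, and all 42 were found among the 36706 genes of the tables. By role they were 11 genes of origin licensing, 5 of helicase activation, 11 of DNA synthesis at the fork, 5 of nucleotide supply, 3 of chromatin assembly behind the fork and 7 regulators of entry into S phase. Messenger RNA was sequenced from wild-type mouse bone marrow-derived dendritic cells, grown with 20 ng/mL of the cytokine GM-CSF and fresh medium on day 3 and day 5. In 3 libraries the cells had received interferon gamma (IFN-γ), and in the other 3 they had received IFN-γ together with 4-OI (4-octyl itaconate), an itaconate ester made to enter cells. Cells without IFN-γ, or with 4-OI alone, were not analysed here, so every comparison is of 4-OI on top of IFN-γ. Dendritic cells is the name in the cell type label and in the protocol, whereas the titles name macrophages, and such cultures are a mixture of cell types. The labels state neither dose nor duration of either agent.

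A cell prepares to copy its DNA in late mitosis and G1, when the origin recognition complex, CDC6 and CDT1 load the ring-shaped MCM2-7 helicase onto origins. At the start of S phase CDC45 and the GINS complex turn the loaded ring into an active helicase, and DNA polymerases with their clamp, clamp loader, flap endonuclease and ligase copy the strands. Most of these genes are transcribed in late G1 by E2F factors, which the retinoblastoma proteins hold back until cyclin D and cyclin E kinases release them. Bone marrow cultures with GM-CSF contain dividing precursors beside cells that have stopped dividing, and IFN-γ is known to restrain the division of myeloid cells.

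The sequences upstream of these genes are shown here because E2F sites near the start are what many of them are known to share. RefSeq promoter windows of GRCm38.p6 (250 bases before the start to 50 after it) were found for 34 of the 42 genes, in 41 windows. The stretches below hold the 250 bases before the start of 4 genes whose RNA was lower with 4-OI (Mcm5, Mcm6, Pola1 and Uhrf1, the last with a pair of windows) and 3 whose RNA was not (Mcm2, Pcna and Rpa2), on the strand of the gene, 5′ to 3′. Capitals mark every match, on either strand, to 4 E2F-type letter strings. These strings were TTCCCGC as well as TTCGCGC, and in addition TTGCCGC as well as TTGGCGC.
Mcm5, chr8:75109259-75109508, plus strand: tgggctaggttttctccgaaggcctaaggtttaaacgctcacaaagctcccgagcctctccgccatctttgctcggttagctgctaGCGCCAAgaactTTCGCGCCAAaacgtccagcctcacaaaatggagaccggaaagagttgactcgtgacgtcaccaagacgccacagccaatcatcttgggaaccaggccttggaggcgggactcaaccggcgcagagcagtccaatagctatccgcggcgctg
Mcm6, chr1:128359706-128359955, minus strand: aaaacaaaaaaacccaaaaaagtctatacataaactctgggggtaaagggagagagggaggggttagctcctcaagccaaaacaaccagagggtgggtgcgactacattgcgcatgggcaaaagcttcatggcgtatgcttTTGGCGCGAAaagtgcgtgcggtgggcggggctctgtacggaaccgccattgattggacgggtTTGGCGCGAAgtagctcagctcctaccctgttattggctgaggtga
Pola1, chrX:93632156-93632405, minus strand: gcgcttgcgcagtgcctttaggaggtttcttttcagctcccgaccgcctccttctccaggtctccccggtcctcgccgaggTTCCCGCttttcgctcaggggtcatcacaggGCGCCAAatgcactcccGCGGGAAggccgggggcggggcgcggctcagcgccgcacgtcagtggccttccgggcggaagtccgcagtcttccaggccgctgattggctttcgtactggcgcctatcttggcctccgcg
Uhrf1, chr17:56303087-56303336, plus strand: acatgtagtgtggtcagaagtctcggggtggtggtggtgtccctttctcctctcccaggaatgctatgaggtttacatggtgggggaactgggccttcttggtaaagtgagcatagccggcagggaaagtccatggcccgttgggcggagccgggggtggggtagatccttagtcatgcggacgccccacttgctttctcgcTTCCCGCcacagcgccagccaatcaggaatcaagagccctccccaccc
Uhrf1, chr17:56304063-56304312, plus strand: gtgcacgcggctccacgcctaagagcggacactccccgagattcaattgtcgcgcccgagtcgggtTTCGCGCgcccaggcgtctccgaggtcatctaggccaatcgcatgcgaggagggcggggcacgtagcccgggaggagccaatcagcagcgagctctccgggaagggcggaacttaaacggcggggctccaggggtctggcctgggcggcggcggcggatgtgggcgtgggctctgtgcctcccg
Mcm2, chr6:88898781-88899030, minus strand: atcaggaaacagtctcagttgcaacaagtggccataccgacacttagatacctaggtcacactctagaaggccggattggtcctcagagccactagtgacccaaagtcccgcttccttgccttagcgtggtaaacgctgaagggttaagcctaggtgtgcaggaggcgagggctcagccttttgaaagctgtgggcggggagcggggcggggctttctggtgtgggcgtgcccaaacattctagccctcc
Pcna, chr2:132253181-132253430, minus strand: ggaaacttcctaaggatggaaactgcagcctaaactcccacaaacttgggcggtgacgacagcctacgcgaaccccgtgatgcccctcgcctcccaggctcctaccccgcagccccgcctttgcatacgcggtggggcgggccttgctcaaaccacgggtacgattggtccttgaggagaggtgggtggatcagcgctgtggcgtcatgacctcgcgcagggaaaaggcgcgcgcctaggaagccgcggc
Rpa2, chr4:132768110-132768359, plus strand: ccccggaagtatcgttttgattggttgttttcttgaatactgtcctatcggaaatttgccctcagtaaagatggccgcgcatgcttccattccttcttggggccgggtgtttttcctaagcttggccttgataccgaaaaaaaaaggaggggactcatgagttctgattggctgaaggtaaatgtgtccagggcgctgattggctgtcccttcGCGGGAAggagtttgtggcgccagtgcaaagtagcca
Mcm5 had 3 matches, at 164, 152 and 149 bases before the start, and Mcm6 had 4, at 109, 106, 46 and 43. Pola1 had 3 (169, 138 and 121) and Rpa2 had 1 (37), whereas Mcm2 and Pcna had none in these stretches. Uhrf1, with the largest fold of the 42 genes, had 1 match in each window, at 48 and at 184 bases. The genes shown were picked with their matches known and do not stand for the rest: Cdt1, Chaf1b and Rfc3, which were not lower, had 2 matches each in their whole windows. Conversely Mcm10, Cdc45, Rfc5, Tyms, Tk1, Dut, Ccne1 and Ccnd3, which were lower, had windows without any match.

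Over whole windows of 300 bases, an E2F-type string lay in 25 of 41 windows of the replication genes (61.0%), against 9.57% of all 32851 windows and 15.6% of the 14139 windows of genes tested here. Of the windows of genes that were lower with 4-OI, 21 of 33 (63.6%) held one, and of the windows of the genes that were not, 4 of 8. The CHR string TTTGAA, known from promoters of genes active in mitosis, lay in 5 of the 41 windows (12.2%), close to the 12.8% of windows of tested genes. In the windows of 35 mitosis genes, of which 29 had a window (30 windows), the order was the other way round, with an E2F-type string in 16.7% and a CHR string in 70.0%. A CCAAT box (CCAAT) lay in 58.5% of windows of the replication genes, 83.3% of those of mitosis genes and 37.2% of those of tested genes. A match is a string of letters in a window and does not show that a factor binds there.

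Total counts ran from 21710639 to 27510232 in the IFN-γ libraries and from 19656368 to 29244717 with 4-OI, at which 3 counts correspond to 0.102 to 0.163 CPM (the count relative to the library size, scaled here by TMM factors). The treatment groups separated along the first principal component, which carried 79.5% of the variance. On the second (10.7%), IFN-γ replicate 1 lay at 32.0 against -19.1 and -16.8 for replicates 2 and 3, and 4-OI replicate 3 at -14.4 against 12.4 and 5.84. IFN-γ replicate 1 also carried 254 counts of the collagen gene Col1a1, 265 of Col1a2 and 337 of Col3a1, each at 16 or fewer in every other library. It was the lowest IFN-γ library for 23 of the replication genes (median length 2509 bases), the highest for 8 (3920 bases) and in the middle for 11 (3470 bases). Counts of called genes are given with and without these libraries for the replication genes, the wider pathway list and the mitosis genes, but not for smaller lists or markers. Whether replicates are separate cultures or animals is not said in any label, and p-values then cover only library-to-library spread, possibly technical.

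With 4-OI, RNA of the replication genes was lower as a body, to about the same degree in all 3 libraries. Of the 42 genes, all of which passed the filter on low counts, 33 fell, 1 rose (Cdt1) and 8 did not pass a Benjamini-Hochberg adjusted p of 0.05 in edgeR's quasi-likelihood test, where the background over all 14011 tested genes was 25.4% lower and 22.7% higher. At least 2-fold lower were 21 genes, against 11.1% of all tested genes. Groups did not overlap, with every 4-OI library below every IFN-γ library, for 34 genes, against 30.6% of all tested genes. The median log2 fold change was -0.995 (range -2.45 to 0.30), beside -0.01 over all tested genes. The genes' median deviation from the IFN-γ mean, on the log2 scale, was -0.05, 0.06 and 0.03 in the IFN-γ libraries and -1.05, -1.02 and -0.97 in the 4-OI libraries. Together the 42 genes summed to 1069.8 to 1083 CPM in the IFN-γ libraries and 541 to 583 CPM in the 4-OI libraries. A large part of the fall of this sum lay in Ccnd2 (mean 243 against 63.3 CPM) and Ccnd3 (105 against 42.9 CPM), while Pcna read 88.3 against 103 CPM. The share of the 42 genes in the unscaled counts was 0.116% to 0.120% and 0.0502% to 0.0531%. Without IFN-γ replicate 1, 35 genes were lower and 1 higher, without 4-OI replicate 3, 34 and 0, and without both, 37 and 1.

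**Figure D1:**
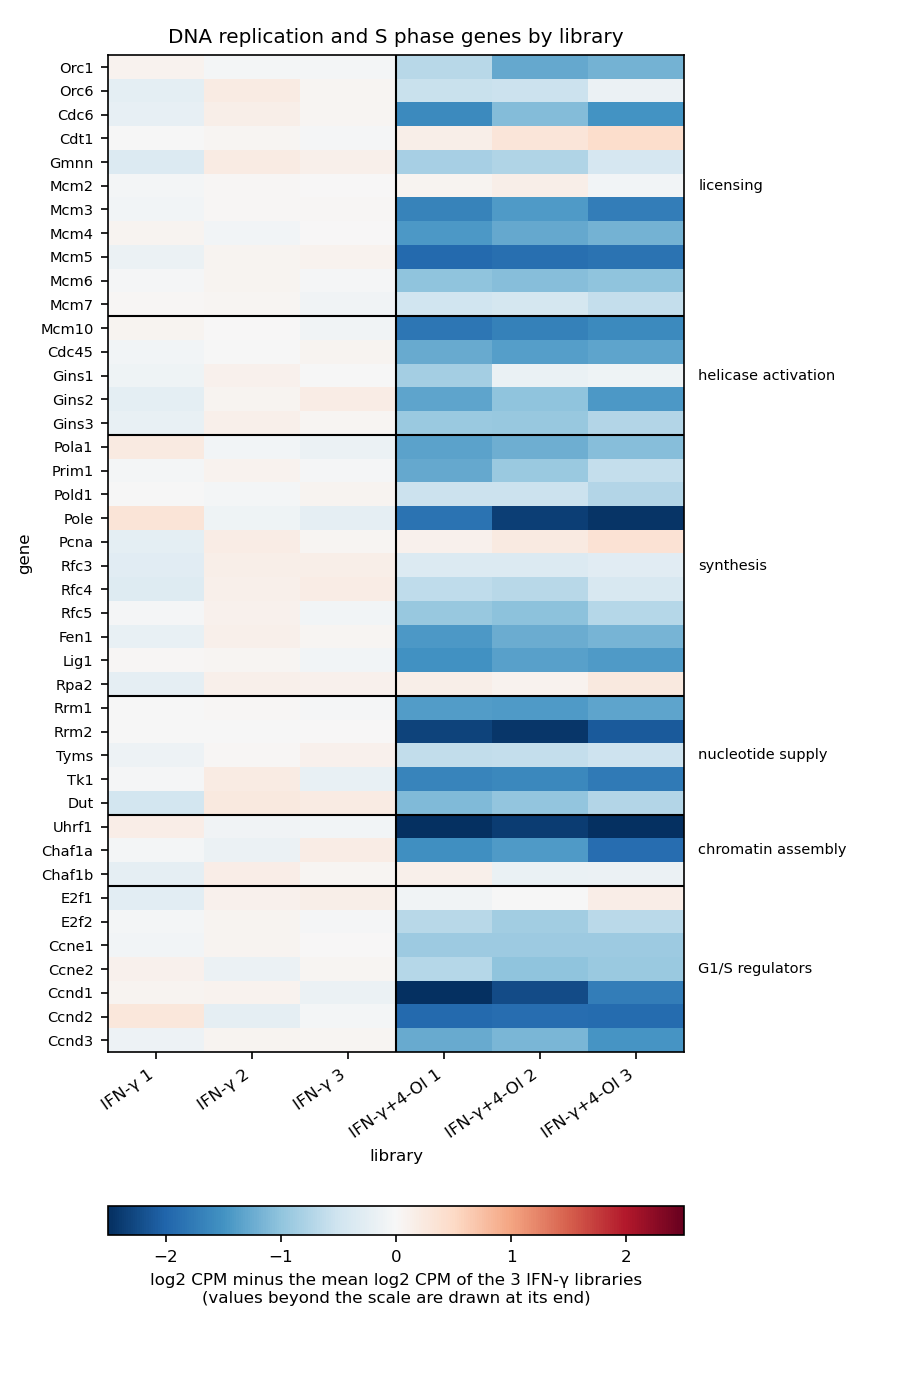
Log2 CPM of the 42 replication genes (rows, by role) in the 6 libraries (columns), each minus the gene's mean over the IFN-γ libraries; values beyond the colour scale are drawn at its end. Most rows are lower in all 3 libraries with 4-OI, while the rows of Cdt1, Mcm2, Pcna, Rpa2, Chaf1b and E2f1 are not.

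**Figure D2:**
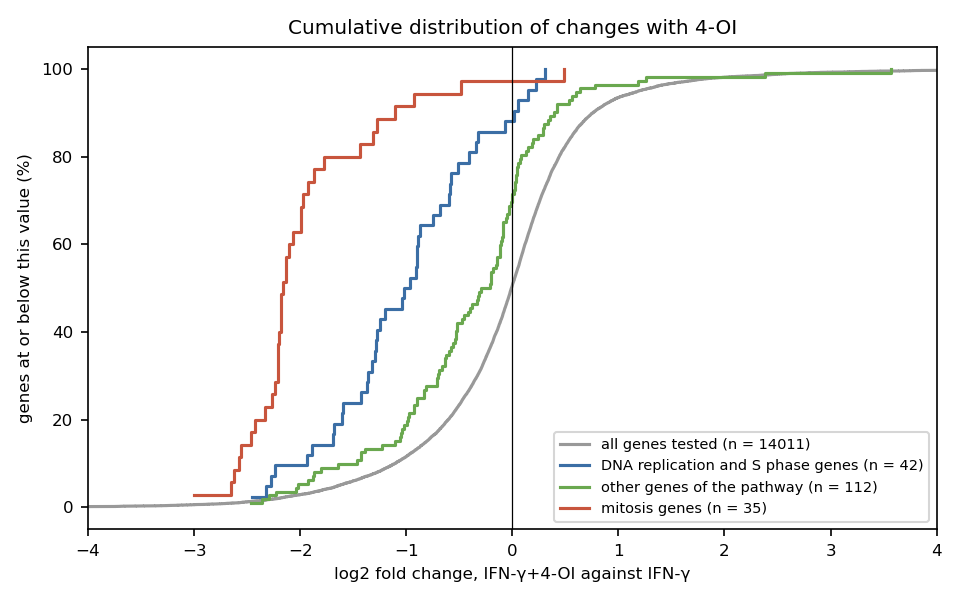
Cumulative share of genes (y axis) by log2 fold change, IFN-γ+4-OI against IFN-γ (x axis), for the 42 replication genes, the 112 tested other genes of the pathway, the 35 mitosis genes and all 14011 tested genes. The medians lie at -0.995, -0.25, -2.16 and -0.01 in that order.

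Markers of some other cells in such cultures moved as well, and their counts stand beside the background of 25.4% lower and 22.7% higher. Of the tested markers of mast cells and basophils, 7 of 7 fell (12 listed, summed level 345 to 377 CPM with IFN-γ and 105 to 114 with 4-OI, with Mcpt4 at 0 counts in all libraries and Cma1 at 1 or 0). Of the progenitor markers 10 of 11 fell (summed 145.3 to 145.7 against 55.3 to 58.5 CPM), and of the monocyte markers 8 of 10 (2116 to 2628 against 1016 to 1124 CPM). Conventional dendritic cell markers fell in 8 and rose in 1 of 11 tested cases (summed 1555 to 1604 against 1189.5 to 1211 CPM). Kit stands in both the mast cell and the progenitor list, and Flt3 in both the progenitor and the dendritic cell list. Counts and sums of these lists are therefore not separate. Macrophage markers fell in 1 and rose in 2 of 10 (summed 2134 to 2202 against 2725 to 2856 CPM), no more often than all tested genes. Neutrophil markers fell in 5 and rose in 2 of 10 (summed 3569 to 4297 against 3956 to 4644 CPM). Of the B cell markers 0 of 5 tested passed in edgeR's test, and 0 had an unadjusted p under 0.05. Both tested markers of T and NK cells (7 listed), the single tested erythroid marker (7 listed) and 1 of 2 tested stromal markers (6 listed) fell. The part of these cells in the fall of the replication genes was not tested. In RNA from whole cultures, fewer dividing cells and less RNA of these genes per cell cannot be told apart.

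Licensing genes were mostly lower with 4-OI, with 8 of 11 falling and a median log2 fold change of -1.03. Over all tested genes 25.4% were lower, and the counts of this and the following roles are to be read against that share. The MCM2-7 genes were not all called lower. Mcm3, Mcm4, Mcm5, Mcm6 and Mcm7 fell by different amounts, whereas Mcm2 did not pass the test. Differences between the subunits were not tested. Mcm5 read 19.6, 22.7 and 23.2 CPM in the IFN-γ libraries and 5.70, 5.94 and 6.05 with 4-OI, which was 3.70-fold lower (log2 fold change -1.89 ± 0.10, SE; edgeR adjusted p = 6.71e-06). Mcm3 read 29.9, 31.8 and 32.1 CPM against 9.88, 11.7 and 9.43 (3.02-fold lower, edgeR adjusted p = 1.52e-05). Mcm4 read 36.9, 33.6 and 35.4 CPM against 12.97, 14.6 and 15.6 (2.45-fold lower, edgeR adjusted p = 2.75e-05). These 3 subunits lay far below the IFN-γ range in every 4-OI library. Mcm6 read 48.1, 50.9 and 47.6 CPM against 24.2, 23.4 and 24.4 (2.04-fold lower, edgeR adjusted p = 2.84e-05). Mcm7 read 25.1, 25.5 and 23.3 CPM against 17.5, 18.2 and 16.4 (1.42-fold lower, edgeR adjusted p = 1.99e-03). Mcm7 thus had the least change among the 5 subunits that fell, though its groups did not overlap. Mcm2 read 15.4, 16.2 and 16.0 CPM with IFN-γ and 16.7, 17.4 and 15.1 with 4-OI (log2 fold change 0.05 ± 0.09, SE; edgeR adjusted p = 0.682). Its groups overlapped. In the deposited tables Mcm5 lies on chromosome 8, 75836096 to 75855067, plus strand, and Mcm2 on chromosome 6, 88860456 to 88875762, minus strand. Deposited positions cannot be compared with those of the promoter windows above.

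The 6 subunits form the ring in equal number, so their shares of the MCM2-7 RNA were compared per length within each library, as percent of summed TPM, which divides each count by the length of its gene. Mcm2 held 9.46%, 9.59% and 9.64% of the MCM2-7 TPM in the IFN-γ libraries and 20.7%, 20.5% and 18.8% with 4-OI. Mcm5 went the other way, from 11.6%, 13.002% and 13.4% to 6.80%, 6.70% and 7.24%. With IFN-γ alone, Mcm2 had the lowest share of the 6, and with 4-OI Mcm5 did. The TPM ratio of Mcm5 to Mcm2 was 1.32 ± 0.0890 (SD, n = 3) with IFN-γ and 0.347 ± 0.0333 with 4-OI. As a share of the MCM2-7 TPM, Mcm7 went from 14.4% ± 0.696 to 20.5% ± 0.685, and Mcm3 from 20.9% ± 0.548 to 13.9% ± 1.13. The summed MCM2-7 TPM itself went from 113.7 ± 11.4 to 43.2 ± 4.75, so a larger share was not more RNA. Mean TPM of Mcm7 went from 16.5 to 8.87. Mcm2 went from 10.9 to 8.66 and was lower in every 4-OI library in TPM. The share of Mcm6 was 22.4% ± 0.594 and 22.2% ± 1.21, and its range in the 4-OI libraries enclosed that of the IFN-γ libraries. Shares are not independent of each other, and no test was made of them.

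**Figure D3:**
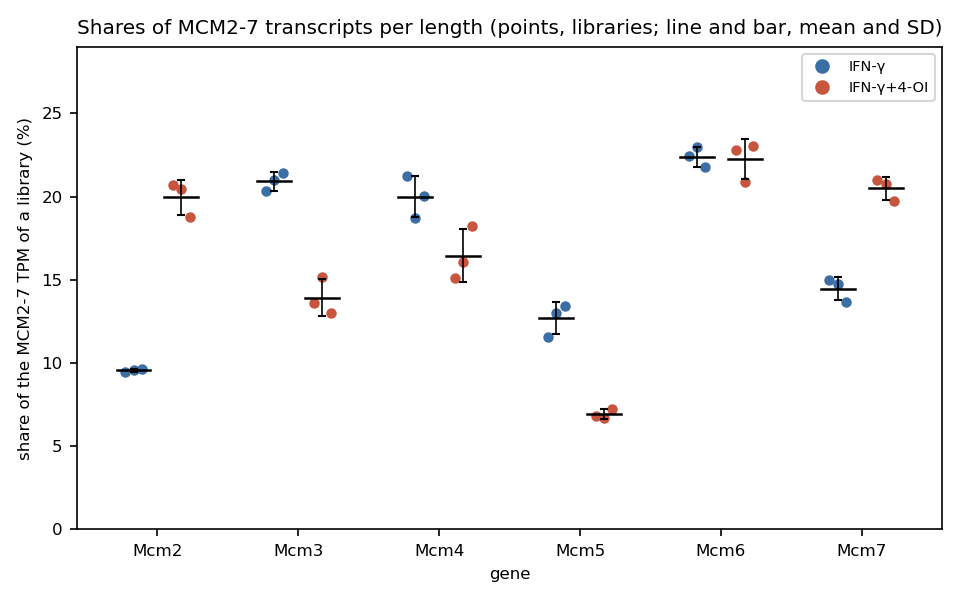
Share of each MCM2-7 subunit in the summed MCM2-7 TPM of a library (y axis, percent), with points for the 3 libraries of each group, lines for the mean and bars for the SD. Mcm2 goes from a mean of 9.56% to 20.0% and Mcm5 from 12.7% to 6.91%.

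Of the loading factors, Cdc6, which brings the ring to the origin, read 4.12, 5.26 and 4.88 CPM with IFN-γ and 1.57, 2.24 and 1.69 with 4-OI (2.56-fold lower, edgeR adjusted p = 6.04e-04). Orc1, the largest subunit of the origin recognition complex, read 2.97, 2.72 and 2.72 CPM against 1.74, 1.16 and 1.24 (2.06-fold lower, edgeR adjusted p = 3.32e-03). Both were low, at under 6 CPM in every library. Orc6, another subunit, read 11.2, 15.5 and 13.7 CPM against 9.12, 9.16 and 12.1, its groups overlapped, and its log2 fold change of -0.41 ± 0.16 (SE) did not pass (edgeR adjusted p = 0.0648). It passed without IFN-γ replicate 1 (edgeR adjusted p = 7.83e-03), without 4-OI replicate 3 (edgeR adjusted p = 0.0334) and with total-count scaling (edgeR adjusted p = 3.94e-03). CDT1 is the partner of CDC6 in loading, and geminin is the protein that blocks CDT1 after origins have fired. With TMM scaling, RNA of this pair moved in opposite directions. Cdt1 read 12.3, 12.7 and 12.01 CPM with IFN-γ and 13.7, 15.3 and 16.7 with 4-OI, 1.24-fold higher (log2 fold change 0.30 ± 0.10, SE; edgeR adjusted p = 0.0376). That call was lost with total-count scaling (log2 fold change 0.04), without the filter on low counts (edgeR adjusted p = 0.0569) and without any 1 of IFN-γ replicates 2 and 3 and 4-OI replicates 2 and 3. Gmnn, which encodes geminin, read 18.4, 26.7 and 25.3 CPM against 12.97, 13.7 and 17.2 (1.60-fold lower, edgeR adjusted p = 0.0112), and the highest 4-OI library lay just under the lowest IFN-γ library. Its call was lost without 4-OI replicate 2 (edgeR adjusted p = 0.0515). Within libraries, the TPM ratio of Gmnn to Cdt1 was 1.24, 1.74 and 1.74 in the IFN-γ libraries, against 0.785, 0.741 and 0.852 with 4-OI.

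Genes that activate the loaded helicase fell in 4 of 5 cases, with a median log2 fold change of -1.25. Mcm10, a factor that helps the helicase start, read 6.01, 5.80 and 5.39 CPM with IFN-γ and 1.63, 1.77 and 1.89 with 4-OI (3.23-fold lower, edgeR adjusted p = 3.62e-05). Cdc45, a subunit of the moving helicase, read 8.07, 8.45 and 8.96 CPM against 3.53, 3.26 and 3.42 (2.50-fold lower, edgeR adjusted p = 4.34e-05). Both were tightly grouped, with no 4-OI library within reach of the IFN-γ range. Of the GINS subunits, Gins3 read 9.77, 12.1 and 11.4 CPM against 5.81, 5.75 and 6.67 (1.82-fold lower, edgeR adjusted p = 6.97e-04). Gins2, the gene of this role with the highest mean TPM in the IFN-γ libraries, read 4.79, 5.94 and 6.50 CPM against 2.28, 2.82 and 2.10 (2.38-fold lower, edgeR adjusted p = 7.23e-04). Gins1 read 3.01, 3.46 and 3.23 CPM against 1.79, 2.86 and 3.01, so that its 2 groups met at the edge, and it did not pass (log2 fold change -0.33 ± 0.21, SE; edgeR adjusted p = 0.232). These 3 GINS genes thus had fold changes that differed in size, although the proteins form a complex. The differences between them were not tested. Gins4, the remaining GINS subunit gene, stands in the wider list described below. It read 16.3, 22.4 and 22.8 CPM against 19.2, 20.0 and 23.0, with overlapping groups, and did not pass (log2 fold change 0.02 ± 0.15, SE, edgeR adjusted p = 0.935). Of the exon bases of Gins2, 11.4% are shared with Gse1 on the opposite strand, and the strand setting of the counting is not given in the sources used here.

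Of the genes that make DNA at the fork, 8 of 11 fell and 3 did not pass, at a median log2 fold change of -0.90. Lig1, the ligase that joins the fragments of the lagging strand, read 17.01, 17.2 and 15.9 CPM with IFN-γ and 5.81, 6.51 and 6.26 with 4-OI (2.69-fold lower, edgeR adjusted p = 1.53e-05). Fen1, the nuclease that trims those fragments, read 17.5, 21.9 and 20.6 CPM against 7.38, 8.43 and 8.86 (2.42-fold lower, edgeR adjusted p = 8.73e-05). Both enzymes of fragment maturation were thus lower in each 4-OI library. Pola1 and Prim1 encode the catalytic subunits of the polymerase and the primase that start each fragment. Pola1 read 11.2, 9.17 and 8.62 CPM against 3.80, 4.13 and 4.61 (2.30-fold lower, edgeR adjusted p = 2.65e-04), and Prim1 was 1.86-fold lower (edgeR adjusted p = 3.62e-03). The replicative polymerases had fold changes of unlike size, and the difference between them was not tested. Pole, which encodes the catalytic subunit of the leading strand polymerase, read 9.10, 6.76 and 6.20 CPM against 2.01, 1.41 and 1.32 (4.72-fold lower, edgeR adjusted p = 1.07e-04). Pold1, its counterpart for the lagging strand, read 17.4, 16.8 and 18.4 CPM against 12.05, 12.1 and 10.6 (1.51-fold lower, edgeR adjusted p = 1.36e-03). The TPM ratio of Pole to Pold1 within libraries was 0.274 ± 0.0618 (SD, n = 3) with IFN-γ and 0.0885 ± 0.0176 with 4-OI.

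The sliding clamp itself was among the genes that did not pass. Pcna had the highest TPM of the 42 genes in both groups, with a mean of 160.3 in the IFN-γ libraries and 144.4 with 4-OI. In TPM, which has no TMM scaling, Pcna was lower in every 4-OI library than in any IFN-γ library. In TMM-scaled CPM the direction differed. Pcna read 74.1, 100.1 and 90.8 CPM with IFN-γ and 95.0, 102 and 113 with 4-OI, and its groups overlapped (log2 fold change 0.23 ± 0.13, SE; edgeR adjusted p = 0.174). The TPM ratio of Pcna to Lig1, a ligase that the clamp holds at the fork, was 12.6, 16.9 and 16.6 in the IFN-γ libraries, against 47.5, 45.4 and 52.4 with 4-OI. Rpa2, a subunit of the protein that coats single-stranded DNA, read 15.4, 19.7 and 19.5 CPM against 19.9, 19.1 and 21.4 and did not pass either (log2 fold change 0.15 ± 0.12, SE; edgeR adjusted p = 0.341). In TPM, Rpa2 too was lower in every 4-OI library (20.7, 19.9 and 19.1, against 22.6, 23.4 and 24.0). Of the subunits of the clamp loader RFC, Rfc5 read 13.9, 15.4 and 13.6 CPM against 7.38, 6.99 and 8.73 (1.86-fold lower, edgeR adjusted p = 4.51e-04). Rfc4 was 1.50-fold lower (edgeR adjusted p = 0.0164), a call lost without any 1 of IFN-γ replicates 2 and 3 and 4-OI replicates 1 and 2. It shares 13.2% of its exon bases with Eif4a2 on the opposite strand, which had 6899 to 13734 counts. Rfc3 read 8.27, 11.1 and 11.1 CPM against 7.92, 7.93 and 8.28, with only IFN-γ replicate 1 near the 4-OI values, and did not pass (edgeR adjusted p = 0.0697), whereas without IFN-γ replicate 1 it passed.

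All 5 genes of nucleotide supply fell, with a median log2 fold change of -1.37. Rrm1 and Rrm2 encode the subunits of ribonucleotide reductase, which makes deoxyribonucleotides, and the small subunit RRM2 is made anew in S phase. Rrm2 read 32.1, 32.1 and 32.7 CPM with IFN-γ and 6.46, 6.01 and 7.50 with 4-OI (4.85-fold lower, log2 fold change -2.28 ± 0.11, SE; edgeR adjusted p = 3.13e-06). Rrm1 read 46.6, 47.9 and 46.1 CPM against 17.9, 17.6 and 18.8 (2.59-fold lower, edgeR adjusted p = 8.13e-06). Replicates were close for both, and the TPM ratio of Rrm2 to Rrm1 was 1.26 ± 0.0373 (SD, n = 3) with IFN-γ and 0.674 ± 0.0521 with 4-OI. By mean TPM, Rrm2 ranked 4 among the 42 genes with IFN-γ and 21 with 4-OI. Tk1, the thymidine kinase of dividing cells, read 7.99, 9.40 and 7.22 CPM against 2.60, 2.68 and 2.39 (3.21-fold lower, edgeR adjusted p = 4.97e-05), and 20.7% of its exon bases are shared with Afmid on the opposite strand. Tyms, the thymidylate synthase, read 15.1, 16.9 and 17.8 CPM against 10.7, 11.0 and 11.5 (1.50-fold lower, edgeR adjusted p = 1.69e-03). The smallest fold in this role was in thymidylate synthesis from dUMP. Dut, which breaks down dUTP before it can enter DNA, read 11.2, 18.2 and 17.7 CPM against 7.16, 7.71 and 9.18 (1.95-fold lower, edgeR adjusted p = 4.79e-03), with IFN-γ replicate 1 well below the other two.

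Chromatin assembly genes fell in 2 of 3 cases, against 25.4% of all tested genes, and 3 genes are too few to read as a share. Uhrf1, which guides the maintenance methyltransferase to newly copied DNA, had the largest fold of the 42 genes. It read 17.6, 14.9 and 15.0 CPM with IFN-γ and 2.82, 3.04 and 2.80 with 4-OI, 5.47-fold lower (log2 fold change -2.45 ± 0.12, SE; edgeR adjusted p = 3.53e-06). In the deposited tables it lies on chromosome 17, 56610337 to 56630486, plus strand. Chaf1a and Chaf1b encode the large and middle subunits of CAF-1, the complex that places histones on new DNA. Chaf1a read 9.10, 8.52 and 10.7 CPM against 3.26, 3.51 and 2.51 (3.04-fold lower, edgeR adjusted p = 1.13e-04), and 18.7% of its exon bases are shared with Ubxn6 on the opposite strand. Chaf1b read 11.7, 15.3 and 14.2 CPM against 14.8, 12.2 and 12.4, with overlapping groups (log2 fold change -0.07 ± 0.13, SE; edgeR adjusted p = 0.687). As with Mcm2 in its ring, a subunit whose groups overlapped in CPM was found beside a partner that fell. In TPM, Chaf1b was lower in every 4-OI library (13.6, 11.2 and 9.69, against 15.1, 16.0 and 15.3), as was Mcm2. The TPM ratio of Chaf1a to Chaf1b was 0.477, 0.342 and 0.461 in the IFN-γ libraries, against 0.135, 0.177 and 0.124 with 4-OI.

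**Figure D4:**
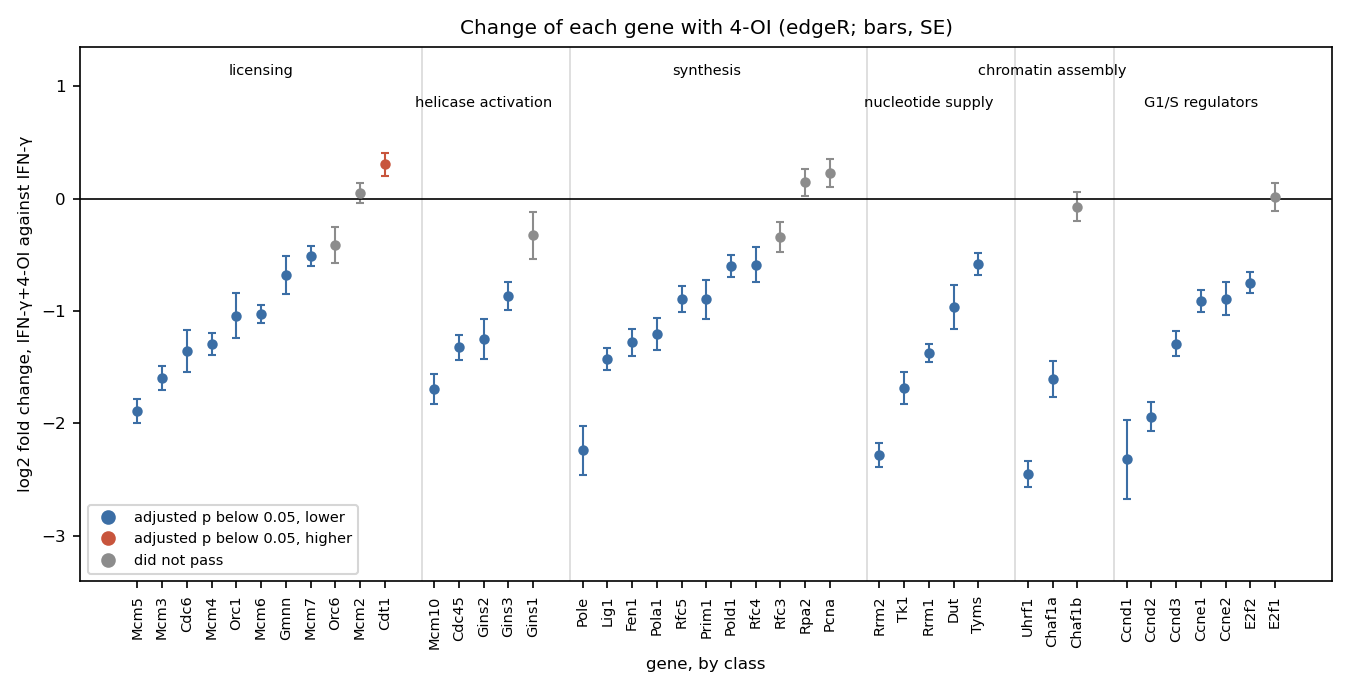
Log2 fold change of each of the 42 genes, IFN-γ+4-OI against IFN-γ (y axis), with its standard error (bars), by role (x axis). The range is -2.45 (Uhrf1) to 0.30 (Cdt1), and the 8 genes that did not pass lie between -0.41 and 0.23.

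Among the regulators of entry into S phase, 6 of 7 fell and E2f1 did not pass. The D-type cyclins, which activate CDK4 and CDK6 in answer to growth factors, all fell. Ccnd2 read 290.2, 205 and 232 CPM with IFN-γ and 62.3, 64.0 and 63.5 with 4-OI (3.83-fold lower, log2 fold change -1.94 ± 0.13, SE; edgeR adjusted p = 1.70e-05). Ccnd3 read 96.3, 111 and 108 CPM against 43.7, 47.3 and 37.8 (2.44-fold lower, edgeR adjusted p = 4.97e-05), and 14.3% of its exon bases are shared with Bysl on the opposite strand. Ccnd1 read 12.3, 12.6 and 10.6 CPM against 0.814, 2.50 and 3.58 (4.99-fold lower, log2 fold change -2.32 ± 0.35, SE; edgeR adjusted p = 1.04e-03). Ccnd1 was the least even of the 3 across the 4-OI libraries, and it shares 21.7% of its exon bases with LTO1 on the opposite strand. Per length, Ccnd3 held 56.4% ± 5.71 (SD, n = 3) of the summed D-type cyclin TPM with IFN-γ and 67.3% ± 3.25 with 4-OI, and Ccnd2 39.4% ± 5.80 and 30.3% ± 2.03. Ccnd1 made up 4.23% ± 0.409 and 2.43% ± 1.58, so that Ccnd3 was first and Ccnd1 last in both groups.

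The E-type cyclins, which drive CDK2 at the entry into S phase and are themselves E2F targets, fell as well. Whether their fold changes differed from those of the D-type cyclins was not tested. Ccne1 read 9.10, 9.98 and 9.59 CPM with IFN-γ and 5.10, 5.10 and 5.07 with 4-OI (1.88-fold lower, edgeR adjusted p = 1.71e-04). Ccne2 read 5.06, 4.28 and 4.88 CPM against 2.88, 2.35 and 2.47 (1.85-fold lower, edgeR adjusted p = 1.55e-03), but 53.2% of its exon bases are shared with Ints8 on the opposite strand. E2f1 and E2f2 are both activators of this program, and the difference between their changes was not tested. E2f2 read 20.2, 21.7 and 20.4 CPM against 12.8, 11.4 and 12.97 (1.68-fold lower, edgeR adjusted p = 3.54e-04). E2f1 read 33.1, 42.6 and 43.6 CPM against 37.0, 39.2 and 44.3, with groups that overlapped throughout (log2 fold change 0.02 ± 0.13, SE; edgeR adjusted p = 0.929). Its sign turned with total-count scaling (-0.24), without IFN-γ replicate 1 (-0.11) and without 4-OI replicate 3 (-0.06), and with both of these libraries left out E2f1 was lower (-0.17, edgeR adjusted p = 0.0122). In TPM, which has no TMM scaling, E2f1 was lower in every 4-OI library (22.2, 23.6 and 22.7, against 28.0, 29.2 and 30.9). The TPM ratio of E2f2 to E2f1 was 0.328 ± 0.0455 (SD, n = 3) with IFN-γ and 0.192 ± 0.0193 with 4-OI.

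**Figure D5:**
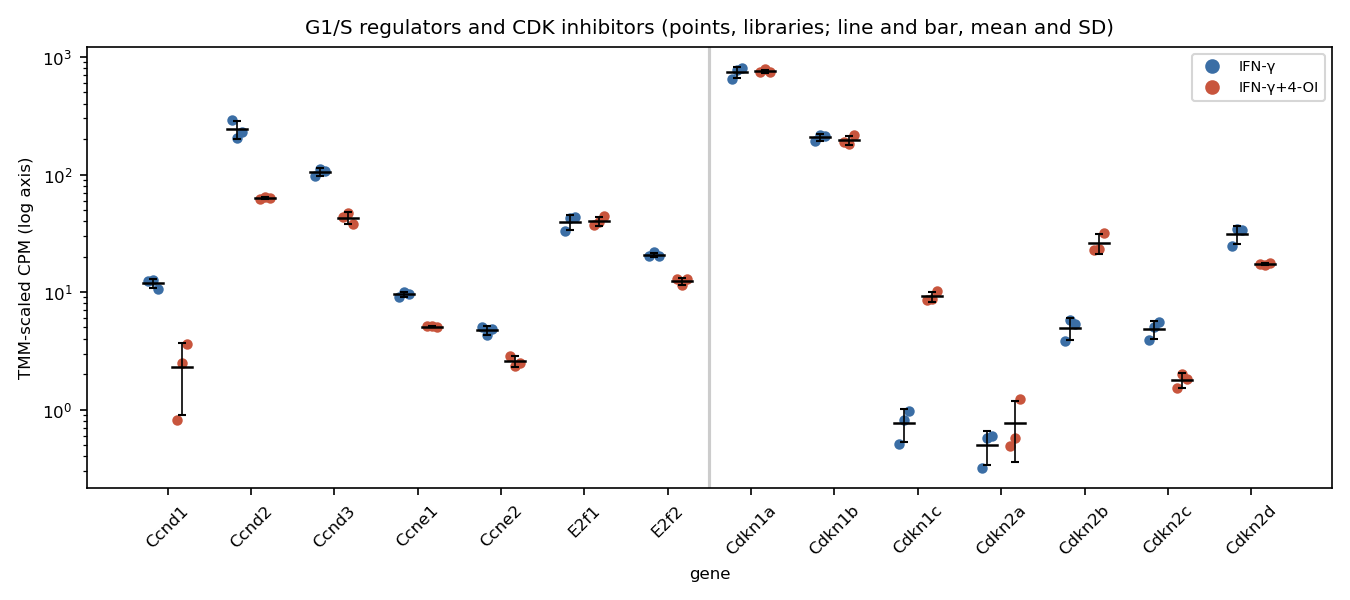
CPM of the cyclins, E2f1, E2f2 and the tested CDK inhibitors (log y axis) in each library (points), with lines for the group mean and bars for the SD. Ccnd1, Ccnd2 and Ccnd3 are lower and Cdkn1c and Cdkn2b higher in every 4-OI library, while E2f1, Cdkn1a and Cdkn1b overlap.

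The CDK inhibitors, which oppose these cyclins, did not move one way. Cdkn1c, which encodes p57, read 0.514, 0.815 and 0.976 CPM with IFN-γ and 8.57, 8.76 and 10.2 with 4-OI (11.9-fold higher, edgeR adjusted p = 8.42e-06). Cdkn2b, which encodes the CDK4 and CDK6 inhibitor p15, read 3.80, 5.84 and 5.31 CPM against 22.6, 23.5 and 31.8 (5.20-fold higher, edgeR adjusted p = 4.31e-05). Cdkn2c fell 2.69-fold (4.85 ± 0.857 to 1.79 ± 0.255 CPM, SD, n = 3; edgeR adjusted p = 5.46e-04) and Cdkn2d 1.78-fold (31.0 ± 5.32 to 17.4 ± 0.448 CPM; edgeR adjusted p = 1.35e-03). These encode p18 and p19, of the same family as p15. Cdkn1a, which encodes p21, read 653, 776 and 799 CPM against 747, 784 and 739 (edgeR adjusted p = 0.849, log2 fold change 0.03 ± 0.10, SE). Cdkn1b, which encodes p27, read 192, 218 and 212 CPM against 189.8, 181 and 216 (log2 fold change -0.08 ± 0.10, SE; edgeR adjusted p = 0.512). Cdkn2a was low, at 0.317 to 1.24 CPM, and did not pass (edgeR adjusted p = 0.254).

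A wider list of 113 other genes of the same pathway, CDK inhibitors included, gave 55 lower, 11 higher and 46 not passing among 112 tested, with a median log2 fold change of -0.25. Over all tested genes 25.4% were lower and 22.7% higher, and the counts of the smaller lists below are to be read against these shares. Without IFN-γ replicate 1 the wider list gave 58 lower and 11 higher, without 4-OI replicate 3 it gave 50 and 10, and without both 67 and 16. Of the other replisome and licensing genes 19 of 36 fell and 2 rose. Pclaf, a PCNA-binding factor, fell from 26.8 ± 0.752 to 5.22 ± 0.482 CPM (SD, n = 3; 5.12-fold, edgeR adjusted p = 2.48e-06). Pole2, the second subunit of the polymerase that Pole belongs to, fell 3.68-fold (edgeR adjusted p = 3.14e-05), whereas Pole4, a small histone-fold subunit of it, rose from 20.9 ± 2.69 to 47.6 ± 7.67 CPM (2.28-fold, edgeR adjusted p = 3.20e-04). Wdhd1, which ties the helicase to the primase complex, fell 3.12-fold (edgeR adjusted p = 2.01e-05). Of the genes of fork protection and the S phase checkpoint 8 of 12 fell and 1 rose. Timeless fell from 8.36 ± 0.664 to 2.20 ± 0.185 CPM (3.80-fold, edgeR adjusted p = 1.63e-05) and Clspn, which carries the signal from ATR to CHK1, 3.50-fold (edgeR adjusted p = 5.15e-05). Dtl, which directs the removal of CDT1 in S phase, fell from 8.95 ± 1.12 to 2.45 ± 0.138 CPM (3.66-fold, edgeR adjusted p = 2.46e-05).

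The 27 other genes of nucleotide supply had 11 lower, 2 higher and a median log2 fold change of -0.11, and no test was made of a difference from the 5 genes above. Ctps, a CTP synthase, fell 2.05-fold (edgeR adjusted p = 1.86e-04) and Dctd, the dCMP deaminase, 4.69-fold from a level of 1.09 ± 0.0842 CPM (SD, n = 3; edgeR adjusted p = 2.71e-04). Tk2, the mitochondrial thymidine kinase, rose 1.26-fold, from 39.6 ± 3.64 to 50.1 ± 2.40 CPM (edgeR adjusted p = 0.0196). Of 11 other chromatin assembly genes 4 fell and 3 rose, shares not far from those over all tested genes. Hells, a remodelling factor of DNA methylation, fell 2.68-fold (edgeR adjusted p = 6.25e-05), while Nasp, a histone chaperone, rose 1.72-fold (edgeR adjusted p = 3.36e-04), Slbp, the histone messenger binding protein, 1.51-fold (edgeR adjusted p = 9.31e-04), and Rbbp7 1.45-fold (edgeR adjusted p = 1.24e-03). Of 19 other regulators of entry into S phase 11 fell and 1 rose. Ccna2, the cyclin of S phase and G2, fell from 33.8 ± 0.568 to 6.90 ± 0.419 CPM (4.89-fold, edgeR adjusted p = 2.17e-06). The repressors E2f7 and E2f8 fell 5.50-fold (edgeR adjusted p = 2.68e-04) and 2.75-fold (edgeR adjusted p = 1.12e-04), whereas E2f6, a repressor outside the control of retinoblastoma proteins, rose from 9.43 ± 0.809 to 22.5 ± 1.68 CPM (2.39-fold, edgeR adjusted p = 4.67e-05).

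Genes of mitosis, given here only to place the replication genes, fell in 34 of 35 cases, 32 of them at least 2-fold. Over all tested genes 25.4% were lower and 11.1% at least 2-fold lower. The median log2 fold change of the mitosis genes was -2.16, beside -0.995 for the replication genes. Pttg1, which encodes securin, was the exception and rose 1.40-fold (edgeR adjusted p = 0.0259). The count of mitosis genes that fell was also 34 without IFN-γ replicate 1, without 4-OI replicate 3 and without both. The difference between the medians was not tested.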

How the data were processed

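The authors deposited a table per library holding raw counts, TPM and FPKM of 36706 genes. Per the labels' protocols the libraries were made with a stranded mRNA kit. HISAT2 and mm10 appear in the submitters' processing notes. How reads were counted, and with which strand setting, is not given in the sources used here. The deposited TPM values are counts per gene length scaled to the same sum in each library. They were used for shares and ratios within a library, and for ranks and mean levels named as TPM. FPKM was not used. Gene positions are printed as deposited. Of the 42 genes, 1 shared a start or end with RefSeq's GRCm38, although 30 had the same span. Deposited positions thus differ from those of the GRCm38.p6 promoter windows, and the assembly may not be the one named in the notes.

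Deposited counts were tested with edgeR 4.0.16 in R 4.3.3 on all genes kept by filterByExpr (minimum count of 10), with TMM factors, robust quasi-likelihood fits without a block, and Benjamini-Hochberg adjustment over all genes tested at 0.05. SE is of the fitted log2 fold change. The fit was also run on simulated counts, with results that are not given here. Chi-square per gene was at least 4.34 for every pair of replicates, so no library was a copy of another. Alternatives used RLE, upper quartile or no factors, other filters, DESeq2 1.42.0, limma-voom (limma 3.58.1), the replicate number as a block, and fewer libraries.

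The genes, the lists and the markers were chosen with earlier results of these data known. Values in every library are given for the genes of each role with the smallest adjusted p or highest TPM. They are also given for the D-type and E-type cyclins, E2f1, E2f2, the MCM2-7 genes, and others a result turned on. Of the other genes, those named were among the 4 of their list with the smallest adjusted p, or CDK inhibitors. Gins4, Pole4, Tk2 and Pttg1 were chosen after their values were seen.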

Additional observations from a re-analysis of the deposited data

How the results depend on the processing

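The 33 genes that were lower were all lower with RLE and upper quartile factors, with no filter or one of 1 CPM in 3 libraries, and with DESeq2 and limma-voom, each of which called 33. The same 33 were among the 36 called with total counts alone, the 35 with the replicate block and the 37 without IFN-γ replicate 1 and 4-OI replicate 3. Leaving out 1 library at a time gave 31 to 35 genes lower, of which 31 to 33 were among these, and 0 to 1 higher. The single rise, Cdt1, was called in 0 cases with total counts alone and without the filter. Total counts alone moved the median log2 fold change of all tested genes to -0.27, against -0.01, and the share of higher among all calls from 47.2% to 24.0% (1719 higher and 5452 lower). Under it 7 other pathway genes were higher, against 11, and 74 lower, against 55, and 4 of the 42 genes changed sign: Mcm2 (-0.21), Pcna (-0.033), Rpa2 (-0.11) and E2f1 (-0.24). E2f1 also changed sign without IFN-γ replicate 1 (-0.11) and without 4-OI replicate 3 (-0.06), Chaf1b without IFN-γ replicate 2 (0.027), and with both libraries out Rpa2 (-0.012) and E2f1 (-0.17). Without single libraries E2f1 ranged from -0.11 to 0.10 and Chaf1b from -0.18 to 0.027, and Rpa2 from 0.033 to 0.22. The cause was not tested. With total counts alone, these 4 genes lay above the median of all tested genes.

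Same-numbered libraries correlated at 0.265, -0.100 and 0.193 in their deviations from the group means, and not every library correlated best with its own number. With the number as a replicate block, 3925 genes were lower and 3588 higher, and Orc6 (edgeR adjusted p = 0.0107) and Rfc3 (edgeR adjusted p = 0.0361) passed as lower. Orc1 rested on 64 to 80 counts in the IFN-γ libraries, against 30 to 32 with 4-OI.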
